A study of Homo sapiens with 12 samples.

Results

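The genes described are 10 members of the human interferon system, matched by gene symbol among the 60106 genes of each deposited count table. They comprise 5 ligand genes (IFNB1, IFNL1, IFNL2, IFNL3 and IFNE) and 5 receptor genes (IFNAR1, IFNAR2, IFNGR1, IFNLR1 and IL10RB). They were followed in PC3 and VCaP, established human prostate cancer cell lines, 72 hours after transfection with a non-targeting siRNA (NSI) or an siRNA against the forkhead transcription factor FOXA1 (siFOXA1). Each of the 4 groups had 3 libraries, and the study's title asks how FOXA1 acts on splicing-related expression and splicing. PC3 cells received 20 nM of siRNA in RPMI medium and gave libraries of polyadenylated RNA, counted without regard to strand. VCaP cells received 40 nM in DMEM and gave libraries of total RNA, counted on the reverse strand. Line, dose, medium, kit and strand setting therefore cannot be told apart. The labels do not say whether replicates were separate cultures, so p-values measure only the spread between these libraries, which may be technical.

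Interferons are secreted proteins that cells release on sensing foreign nucleic acid, and they act on the producing cell and its neighbours. Type I interferons, among them interferon beta (IFNB1) and interferon epsilon (IFNE), bind a receptor of IFNAR1 and IFNAR2. Type III interferons, the interferon lambdas (IFNL1, IFNL2 and IFNL3), bind IFNLR1 paired with IL10RB, a chain that the interleukin-10 family of cytokines shares, and this receptor is found mainly on epithelial cells. Interferon gamma binds IFNGR1 with IFNGR2. All of these receptors work through JAK kinases and STAT proteins. Type I and III receptors activate a complex that holds STAT2 and IRF9, which switches on a common set of antiviral genes. IFNE differs from its relatives in being produced constitutively by epithelia, best known in the female reproductive tract.

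The libraries held 123140099 to 188226483 counts in PC3 and 48187047 to 59839211 in VCaP. FOXA1, the siRNA target, fell from 271 to 169 CPM (counts scaled to a common library size) in PC3. In VCaP it fell from 490 to 80.6 CPM, leaving 62.3% of the NSI mean in PC3 and 16.5% in VCaP. The edgeR quasi-likelihood test gave adjusted p-values of 0.0022 and 1.84e-07, with the groups apart in both lines. Epithelial markers (EPCAM, CDH1, KRT8, KRT18 and KRT19) summed to 752 to 1177 CPM over all libraries. Luminal prostate markers such as KLK3 summed to 3853 to 5764 CPM in VCaP and to 1.40 to 2.95 CPM in PC3, where KLK3 had at most 3 counts in either group. A list of 10 leukocyte markers, cells that are strong sources of interferon, summed to 0.395 to 0.502 CPM in PC3 NSI and 0.632 to 0.731 CPM in PC3 siFOXA1. CD3D, CD3E, CLEC4C and MS4A1 of that list had no more than 3 counts in each PC3 group. In VCaP the same list summed to 6.20 to 7.47 CPM under NSI and 8.35 to 8.81 CPM under siFOXA1.

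The sequences upstream of the ligand genes were searched for a GAAA pair at a fixed spacing, a form of the motif bound by interferon regulatory factors. The windows are the 250 bases before the annotated start in RefSeq on GRCh38.p14, and 9 of the 10 members matched an entry. They were searched on both strands for the core of the interferon-stimulated response element, GAAA followed by any 2 bases and GAAA again, and for a loose NF-kB pattern, GGG followed by any 5 bases and CC. Capitals mark every match of either, so a match on the other strand begins with TTTC or ends with CCC. The 4 ligand genes with higher counts in PC3 siFOXA1 than in NSI come first, and IFNE, the ligand present in both PC3 groups, is last.
IFNB1, chr9:21077943-21078192, minus strand: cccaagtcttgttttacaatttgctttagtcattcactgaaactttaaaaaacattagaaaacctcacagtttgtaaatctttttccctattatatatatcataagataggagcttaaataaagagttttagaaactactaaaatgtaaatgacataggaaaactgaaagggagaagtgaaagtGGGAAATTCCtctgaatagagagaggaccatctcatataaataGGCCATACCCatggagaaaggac
IFNL1, chr19:39296157-39296406, plus strand: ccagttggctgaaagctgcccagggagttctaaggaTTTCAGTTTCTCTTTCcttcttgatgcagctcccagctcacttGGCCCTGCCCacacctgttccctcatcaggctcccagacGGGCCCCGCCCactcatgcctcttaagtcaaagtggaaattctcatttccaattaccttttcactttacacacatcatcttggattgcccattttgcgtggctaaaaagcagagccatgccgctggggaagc
IFNL2, chr19:39268146-39268395, plus strand: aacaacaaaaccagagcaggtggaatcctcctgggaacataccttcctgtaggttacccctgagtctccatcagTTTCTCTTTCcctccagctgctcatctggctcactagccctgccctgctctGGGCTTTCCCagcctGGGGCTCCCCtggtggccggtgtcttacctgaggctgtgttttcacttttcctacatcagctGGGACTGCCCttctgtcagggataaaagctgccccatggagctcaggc
IFNL3, chr19:39245251-39245500, minus strand: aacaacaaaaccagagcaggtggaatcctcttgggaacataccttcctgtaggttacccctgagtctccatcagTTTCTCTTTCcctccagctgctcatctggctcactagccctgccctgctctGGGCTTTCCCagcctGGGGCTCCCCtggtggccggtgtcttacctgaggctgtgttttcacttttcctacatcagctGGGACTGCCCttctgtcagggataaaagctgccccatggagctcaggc
IFNE, chr9:21482314-21482563, minus strand: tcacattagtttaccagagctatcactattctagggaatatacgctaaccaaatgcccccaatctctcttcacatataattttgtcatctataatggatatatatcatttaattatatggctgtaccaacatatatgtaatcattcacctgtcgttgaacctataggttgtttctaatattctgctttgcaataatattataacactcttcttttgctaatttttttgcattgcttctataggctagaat

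The GAAA pair occurred 2 times in the IFNL1 window, at overlapping positions −214 to −205 and −208 to −199 from the start. It occurred 1 time each in the IFNL2 and IFNL3 windows shown, at −176 to −167, and at this spacing in neither the IFNB1 nor the IFNE window. The IFNB1 window holds a GAAA pair at a wider spacing (gaaaactgaaa), which the pattern could not match. IFNB1 is therefore not shown to lack a motif that these factors bind. IFNL3 has a second annotated start, whose window (chr19:39245007-39245256, minus strand) held no GAAA pair and 1 match of the NF-kB pattern. Among all 35116 windows of the same length, 3.02% held this pattern. The NF-kB pattern is so loose that 54.4% of all windows held it. The IFNB1 window held it as GGGAAATTCC at −66 to −57, and the IFNE window did not hold it. The IFNL2 and IFNL3 windows shown differed at 1 of 250 bases. The forkhead pattern TGTTTAC, present in 2.98% of windows, matched only in an IFNAR1 window among the members matched. The AP-1 pattern TGANTCA, present in 6.57% of windows, matched in no member window. A match is a description of letters, and factor binding was not measured here.

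IFNL2 and IFNL3 are near-copies, which bears on how their counts can be read. Their exons in the deposited annotation, aligned on GRCh37, were identical at 719 of 734 aligned bases (98.0%), with an unbroken identical run of 125 bases. IFNL1 shared 78.8% of aligned bases with IFNL2 and 76.7% with IFNL3. A coding exon shows this, with capitals marking the 4 bases at which the IFNL2 and IFNL3 copies differ. The matching exon of IFNL1 is given below them without capitals.
IFNL2, chr19:39760128-39760277, plus strand: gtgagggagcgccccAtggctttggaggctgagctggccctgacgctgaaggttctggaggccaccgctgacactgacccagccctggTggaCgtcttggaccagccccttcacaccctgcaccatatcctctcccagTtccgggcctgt
IFNL3, chr19:39734648-39734797, minus strand: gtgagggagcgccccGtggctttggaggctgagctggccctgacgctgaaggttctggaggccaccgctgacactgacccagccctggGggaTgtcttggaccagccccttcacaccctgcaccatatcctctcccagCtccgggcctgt
IFNL1, chr19:39788604-39788747, plus strand: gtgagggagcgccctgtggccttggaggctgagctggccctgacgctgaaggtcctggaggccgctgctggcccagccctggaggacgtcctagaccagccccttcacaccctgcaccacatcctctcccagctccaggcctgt
Fragments that aligned equally well to both copies were divided between them in the authors' counting, so the split between IFNL2 and IFNL3 is uncertain, and their sum less so.

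IFNB1 and the 3 interferon lambda genes had counts in every PC3 siFOXA1 library and few or none elsewhere. In bulk libraries, more expressing cells and more RNA per expressing cell cannot be told apart. IFNB1 (ENSG00000171855.6_2, chromosome 9, 21077104 to 21077962 on GRCh37, a gene of 1 exon) had 0, 2 and 0 deposited counts in the PC3 NSI libraries and 15, 13 and 20.5 in siFOXA1. The groups did not overlap, and every siFOXA1 library was above the highest NSI library. Summed and rounded, 2 counts became 49, a ratio of 24.6 after scaling (exact 95% interval 6.46 to 209, counting error only). The log2 fold change was 4.37 (SE 0.80, adjusted p 0.0048, edgeR quasi-likelihood test), and leaving out NSI replicate 2, the NSI library with counts, left at least 11.5-fold. IFNB1 passed the filter on low counts only through its siFOXA1 libraries, so this p-value is given as a description only.

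IFNL1 (ENSG00000182393.2_2, chromosome 19, 39786965 to 39789313, 5 exons) encodes interferon lambda 1. Its deposited counts were 4, 0.17 and 1 in PC3 NSI and 53, 49 and 61 in PC3 siFOXA1. The siFOXA1 libraries lay close together, and all were far above NSI. The sums of 5 and 163 gave a ratio of 32.8 (exact 95% interval 13.8 to 102, counting error only), and the log2 fold change was 4.94 (SE 0.58, adjusted p 0.00058, edgeR quasi-likelihood test). As with IFNB1, the gene passed the filter only through its siFOXA1 libraries, and the p-value is descriptive. NSI replicate 1 held 4 of the 5 NSI counts, and without it the ratio was 112 (interval 19.9 to 4462).

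IFNL2 (ENSG00000183709.7_2, chromosome 19, 39759154 to 39760732) had 0, 0.17 and 0 counts in PC3 NSI and 15, 1.33 and 3.5 in siFOXA1. IFNL3 (ENSG00000197110.8_2, chromosome 19, 39734193 to 39735769) had 0 in each NSI library and 13, 3 and 6.56 in siFOXA1. Replicate 1 was the highest siFOXA1 library for both genes, and the groups did not overlap for either. Both fell under the filter on low counts, so the filtered edgeR test did not include them. Against a floor of 3 counts for the group sum, IFNL2 was at least 6.70-fold higher and IFNL3 at least 7.70-fold higher in siFOXA1. Without siFOXA1 replicate 1 the IFNL2 bound was 2.62-fold and the IFNL3 bound 5.23-fold. With no filter, the edgeR test gave adjusted p-values of 0.014 for IFNL2 and 0.0051 for IFNL3. Both entered that fit only through siFOXA1 libraries, so these p-values too are descriptive. The sum of the 2 genes, which a division between them alone would not change, was 0, 0.17 and 0 in NSI and 28, 4.33 and 10.06 in siFOXA1.

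In an exact permutation test, two-sided and unpaired, of CPM in 3 against 3 libraries, each of these 4 ligands gave p = 0.1. That is the smallest that 20 arrangements allow. Pairing by replicate number would leave fewer arrangements, and so a larger smallest p. Groups that do not overlap were common in PC3, where 45.1% of all 26478 genes tested had them, 22.4% with siFOXA1 higher and 22.7% with it lower. Per exon length the siFOXA1 levels were low. IFNL1 reached 0.420 ± 0.0386 RPKM (CPM divided by the exon length in kilobases, SD, n = 3) and IFNB1 0.125 ± 0.0195 (SD, n = 3). IFNL3 was at 0.0629 ± 0.0370 and IFNL2 at 0.0561 ± 0.0606 RPKM (SD, n = 3 each), and these last 2 overlapped in range. Among leukocyte markers in PC3, PTPRC (log2 change 2.16, adjusted p 0.033) and CD14 (0.74, adjusted p 0.047, edgeR quasi-likelihood test) were also higher, within the summed marker level of at most 0.731 CPM given above. PTPRC was called in 10 of 15 alternative fits, losing its call with any library but NSI replicate 1 left out. CD14 was called in 7 of 15, losing its call with any library left out, with DESeq2 and with no filter. In VCaP, where these ligands had next to no counts, CD14 rose by 1.96 (adjusted p 2.13e-05, edgeR quasi-likelihood test) and PTPRC was under the filter. The part of these markers in the ligand counts was not tested.

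In VCaP these ligands were at or under 1 count in every library. IFNB1 had 0 counts in 5 libraries and 1 in siFOXA1 replicate 2. IFNL1 had 0.77 counts in NSI replicate 1, 1 count in siFOXA1 replicate 1 and 0 elsewhere. IFNL2, IFNL3 and IFNE stayed at or under 0.25 counts in each library. No group sum passed 3 counts, so no fold is given. With 3 counts as the floor, a VCaP group could have missed a level of up to 0.0188 CPM in NSI and 0.0196 CPM in siFOXA1. Those limits lie below the PC3 siFOXA1 means of 0.353 ± 0.0368 CPM for IFNL1 and 0.105 ± 0.0160 CPM for IFNB1 (SD, n = 3 each). The difference between lines for IFNL1, −4.86 on the log2 scale, was not called (adjusted p 0.21, edgeR quasi-likelihood test) in a fit where each VCaP group held 1 rounded count. DESeq2 called it, at adjusted p 0.046.

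**Figure D1:**
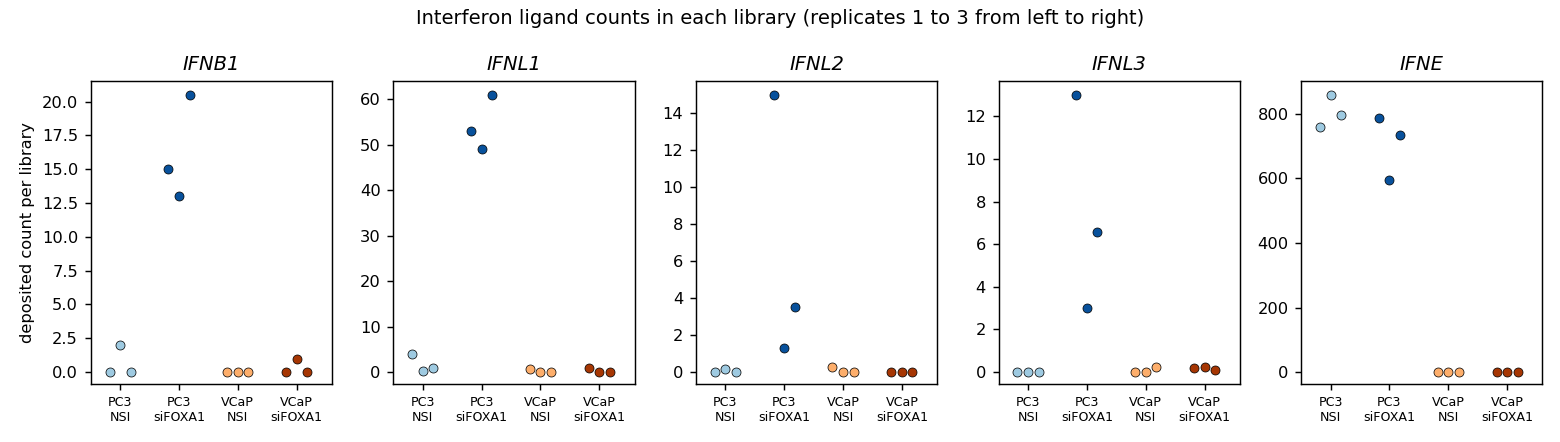
Deposited counts of the 5 ligand genes in each library (y axis, counts, a separate scale per gene), with the replicates of each group from left to right. IFNB1, IFNL1, IFNL2 and IFNL3 had 1.33 to 61 counts in the PC3 siFOXA1 libraries and at most 4 in any other library, whereas IFNE had 595 to 859 in both PC3 groups and at most 0.25 in VCaP.

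IFNE (ENSG00000184995.7_3, chromosome 9, 21480838 to 21482312, 1 exon) was present in both PC3 groups. PC3 NSI libraries held 759.83, 858.82 and 796.14 counts and siFOXA1 libraries 787.12, 595.37 and 733.8. The groups overlapped, at 5.23 ± 0.906 CPM under NSI and 4.55 ± 0.272 under siFOXA1 (SD, n = 3 each). The log2 change was −0.20 (SE 0.14) and was not called (adjusted p 0.33, edgeR quasi-likelihood test). At 3.52 ± 0.616 RPKM in PC3 NSI (SD, n = 3), IFNE had a range that overlapped that of the receptor chain IL10RB. The IL10RB level is itself uncertain, as that gene shares exons with another. Its difference between lines is not reported, as VCaP gave no rounded count.

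Most of the other interferon genes gave few counts. Of 17 listed (IFNA1 and 12 further IFNA genes, IFNW1, IFNK, IFNG and IFNL4), 16 fell under the filter in PC3 and all 17 in VCaP. IFNA1, an interferon alpha gene, was the exception, with group sums of 204.5 counts in PC3 NSI and 226 in siFOXA1. Its log2 change of 0.14 (SE 0.20) was not called (adjusted p 0.63, edgeR quasi-likelihood test). Per exon length IFNA1 stood at 0.507 ± 0.0483 RPKM in PC3 NSI and 0.575 ± 0.0762 in PC3 siFOXA1 (SD, n = 3 each). Both means exceeded the PC3 siFOXA1 means of IFNL1 and IFNB1.

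Receptor genes were expressed in all 12 libraries, and which of them were called differed by chain and by line. The difference between lines was itself called only for IFNAR2 and IFNGR1. In PC3, 1 of 5 was called higher (IFNLR1) and 1 lower (IFNGR1). In VCaP, 4 were called higher (IFNAR2, IFNGR1, IFNLR1 and IL10RB) and 1 lower (IFNAR1). The background was 27.7% of all genes called in PC3 (13.9% higher and 13.9% lower) and 45.8% in VCaP (22.5% higher and 23.3% lower), so calls of this kind were frequent in both lines. IFNB1 and IFNL1 passed the filter only through the siFOXA1 libraries, so their calls are not read against that background. With the replicate number as a block, 42.8% of all genes were called in PC3, and IFNLR1 and IFNGR1 were again called. IFNB1 and IFNL1 were called in that fit too, and are again not read against the share over all genes.

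IFNAR1 (ENSG00000142166.12_3, chromosome 21, 34697209 to 34732168) encodes the type I chain that binds TYK2. In PC3 the NSI libraries stood at 51.3, 44.5 and 47.5 CPM and the siFOXA1 libraries at 50.2, 38.8 and 45.4. These groups overlapped, and the log2 change of −0.09 (SE 0.11) was not called (adjusted p 0.57, edgeR quasi-likelihood test). In VCaP they stood at 129, 134 and 132 CPM and at 122, 111 and 111, without overlap. The VCaP log2 change was −0.20 (SE 0.06, adjusted p 0.028, edgeR quasi-likelihood test). Groups without overlap were found for 55.9% of all genes tested in VCaP (27.9% higher and 28% lower). That call was lost without NSI replicate 2 (adjusted p 0.061), siFOXA1 replicate 2 (0.12) or siFOXA1 replicate 3 (0.074).

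IFNAR2 (ENSG00000159110.19_3, chromosome 21, 34602206 to 34637980) encodes the high-affinity chain of the type I receptor. Its VCaP levels were 17.8, 18.2 and 20.6 CPM under NSI against 28.4, 28.5 and 28.1 under siFOXA1. All siFOXA1 libraries were above all NSI libraries, and the log2 change was 0.59 (SE 0.07, adjusted p 0.00014, edgeR quasi-likelihood test). In PC3 its levels were 6.93, 6.65 and 7.04 CPM under NSI against 6.41, 6.18 and 6.15 under siFOXA1. The PC3 groups did not overlap either, but the log2 change of −0.14 (SE 0.09) was not called (adjusted p 0.30, edgeR quasi-likelihood test). The difference between lines, 0.71 (SE 0.12), was called (adjusted p 0.00044, edgeR quasi-likelihood test).

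IFNGR1 (ENSG00000027697.14_4, chromosome 6, 137518621 to 137540586) encodes the ligand-binding chain of the interferon gamma receptor, and it moved in opposite directions in the lines. VCaP NSI libraries stood at 25.03, 25.01 and 28.1 CPM and siFOXA1 libraries at 50.43, 50.33 and 50.34 CPM. The siFOXA1 mean was 193% of the NSI mean, and the log2 change was 0.95 (SE 0.06, adjusted p 3.17e-06, edgeR quasi-likelihood test). PC3 NSI libraries stood at 15.3, 14.9 and 15.5 CPM and siFOXA1 libraries at 12.2, 11.6 and 11.8 CPM. The PC3 groups were apart, with a log2 change of −0.36 (SE 0.08, adjusted p 0.014, edgeR quasi-likelihood test). The PC3 call was lost without NSI replicate 1 (adjusted p 0.057) or 3 (0.060), or siFOXA1 replicate 1 (0.074) or 3 (0.055). The difference between lines was 1.29 (SE 0.11, adjusted p 6.19e-07, edgeR quasi-likelihood test).

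Its partner IFNGR2, which is not among the 10 members, showed the same pair of directions. IFNGR2 fell from 113 ± 2.13 to 75.5 ± 3.07 CPM in PC3 and rose from 65.6 ± 0.986 to 82.6 ± 3.76 CPM in VCaP (SD, n = 3 each). The log2 changes were −0.59 (adjusted p 0.0011) and 0.33 (adjusted p 0.0013), and the difference of 0.90 was called (adjusted p 1.33e-05, edgeR quasi-likelihood test).

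IFNLR1 (ENSG00000185436.11_2, chromosome 1, 24480647 to 24514449) encodes the chain specific to interferon lambda. In PC3 it stood at 7.26, 5.42 and 7.17 CPM under NSI against 9.30, 9.02 and 10.3 under siFOXA1. Every siFOXA1 library was higher, and the log2 change was 0.53 (SE 0.13, adjusted p 0.019, edgeR quasi-likelihood test). Without siFOXA1 replicate 3 the adjusted p was 0.070. In VCaP it stood at 4.33, 4.92 and 4.50 CPM under NSI against 5.99, 6.20 and 5.16 under siFOXA1. The VCaP log2 change of 0.34 (SE 0.11) had an adjusted p of 0.031 in the edgeR test. It was not called without NSI replicate 1 (0.12) or 3 (0.069), or siFOXA1 replicate 1 (0.10) or 2 (0.12), nor with DESeq2 (0.073). The effects in the lines were not shown to differ (difference −0.21, adjusted p 0.48, edgeR quasi-likelihood test).

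IL10RB (ENSG00000243646.9_3, chromosome 21, 34638663 to 34669539) encodes the shared chain. VCaP levels were 7.41, 7.53 and 7.37 CPM under NSI against 10.6, 9.40 and 9.71 under siFOXA1, without overlap. The log2 change was 0.41 (SE 0.08, adjusted p 0.0031, edgeR quasi-likelihood test). PC3 levels were 7.25, 8.32 and 7.25 CPM under NSI against 7.99, 7.97 and 8.47 under siFOXA1, which overlapped. The PC3 log2 change of 0.10 (SE 0.10) was not called (adjusted p 0.50), and neither was the difference of 0.30 (adjusted p 0.14, edgeR quasi-likelihood test). Of the 5 receptor genes, 2 were called in the difference between lines, IFNAR2 and IFNGR1, both higher. The share over all genes tested was 22.1% (11.1% higher and 11.1% lower). IFNL1 and IFNE also entered that test but are left out of this count, as VCaP gave them next to no counts.

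**Figure D2:**
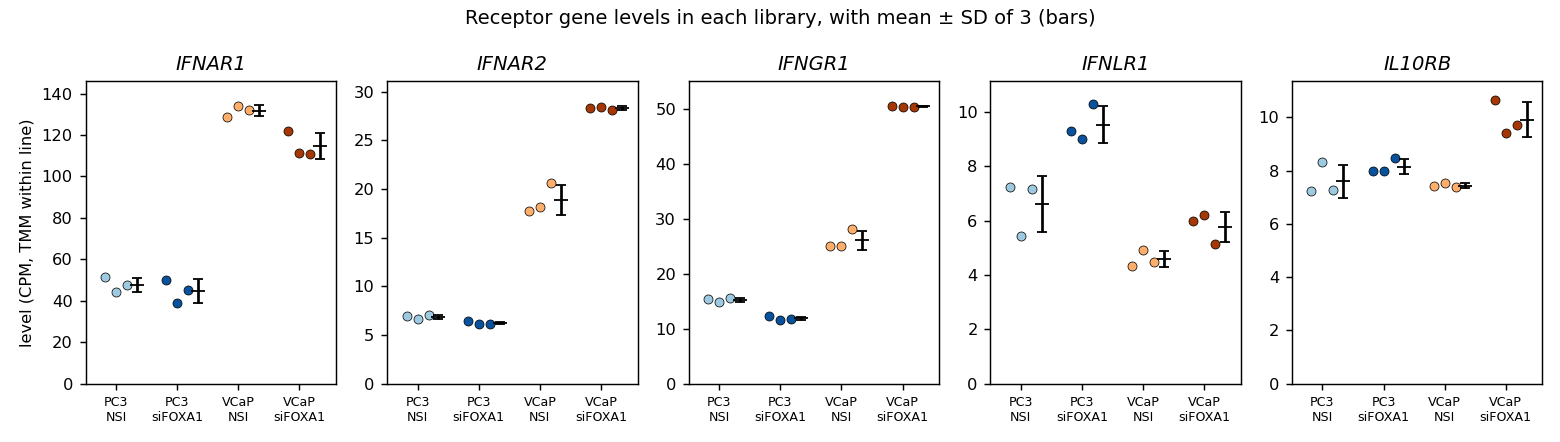
Level of each receptor gene in every library (y axis, CPM, starting at 0, a separate scale per gene), with the mean ± SD of 3 libraries beside the points. IFNGR1 was near 50.4 CPM in all VCaP siFOXA1 libraries against 25.01 to 28.1 in NSI, and was lower in siFOXA1 than in NSI in PC3.

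**Figure D3:**
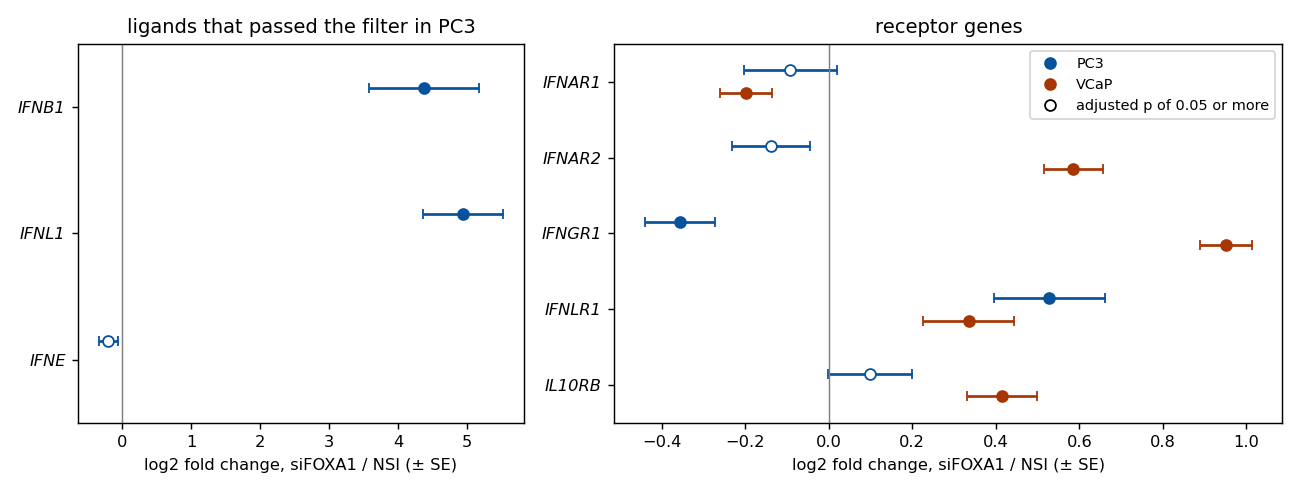
Log2 fold change of siFOXA1 over NSI (x axis, bars are ± SE) for members tested in PC3 (blue) or VCaP (brown), with filled points for an adjusted p under 0.05. IFNB1 and IFNL1 lie at 4.37 and 4.94 in PC3, and for IFNGR1 the lines lie on opposite sides of 0, at −0.36 and 0.95. IFNB1 and IFNL1 passed the filter only through siFOXA1 libraries, so their filled points are descriptive.

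Counts of IFNAR2 and IL10RB are uncertain because they share exons with other annotated genes. AP000295.9 (ENSG00000249624.9_5), a gene model on the same strand, shares 46.8% of the exon bases of IFNAR2 and 88.2% of those of IL10RB. AP000295.7 (ENSG00000223799.1_4), annotated as antisense, covers 41.4% of the IFNAR2 exon bases, and in PC3, counted without strand, its reads cannot be told from those of IFNAR2. AP000295.9 stood at 12.0 ± 0.368 CPM in PC3 NSI and 12.2 ± 0.158 in siFOXA1, and at 16.9 ± 0.634 in VCaP NSI and 23.6 ± 0.595 in siFOXA1 (CPM, SD, n = 3 each). It rose in VCaP by 0.48 on the log2 scale (adjusted p 0.00022) and was not called in PC3 (0.02, adjusted p 0.86, edgeR quasi-likelihood test). AP000295.7 was not called in either line (adjusted p 0.39 in PC3 and 0.22 in VCaP, edgeR quasi-likelihood test). The other 8 members share no exon base with another gene.

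Per exon length, as counted, IFNAR1 was the most abundant member in each of the 4 groups. Levels of IFNAR2 and IL10RB are uncertain here, as fragments on shared exons were divided while the full exon length was used. Ranks against either gene may shift with that division, which was not tested. In PC3 NSI the order was IFNAR1 at 7.73 ± 0.552 RPKM, IFNGR1 at 5.14 ± 0.106, IL10RB at 3.85 ± 0.317, IFNE at 3.52 ± 0.616, IFNAR2 at 1.57 ± 0.0443 and IFNLR1 at 1.33 ± 0.207 (SD, n = 3 each). Of these neighbours, IL10RB and IFNE overlapped in range. In PC3 siFOXA1 the order of the last pair turned, with IFNLR1 at 1.98 ± 0.164 RPKM and IFNAR2 at 1.47 ± 0.0459, while IL10RB (4.24 ± 0.193) and IFNGR1 (4.13 ± 0.154) overlapped (SD, n = 3 each). IFNLR1 shares no exon base with another gene, whereas IFNAR2 does, so this turn is uncertain.

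In VCaP NSI the order was IFNAR1 at 21.1 ± 0.505 RPKM, IFNGR1 at 8.69 ± 0.665, IFNAR2 at 4.26 ± 0.386, IL10RB at 3.72 ± 0.0318 and IFNLR1 at 0.915 ± 0.0594 (SD, n = 3 each), with no overlap between neighbours. In VCaP siFOXA1, IFNGR1 at 17.1 ± 0.0712 RPKM came close to IFNAR1 at 18.7 ± 1.06 (SD, n = 3 each), and their ranges still did not overlap. The ratio of IFNAR1 to IFNAR2 per length was 4.97 ± 0.367 in VCaP NSI and 2.87 ± 0.155 in VCaP siFOXA1, against 4.93 ± 0.276 and 5.08 ± 0.562 in PC3 (SD, n = 3 each). The ratio of IFNGR2 to IFNGR1 was 9.62 ± 0.202 and 8.21 ± 0.265 in PC3 and 3.26 ± 0.166 and 2.12 ± 0.0985 in VCaP, NSI first (SD, n = 3 each). IL10RB to IFNLR1 was 2.96 ± 0.766 and 2.14 ± 0.0787 in PC3, and 4.08 ± 0.228 and 4.32 ± 0.472 in VCaP, NSI first (SD, n = 3 each), the VCaP groups overlapping. Ratios with IFNAR2 or IL10RB carry the uncertainty of their shared exons. The strand setting also differed between the lines, so these ratios are not directly comparable between PC3 and VCaP.

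**Figure D4:**
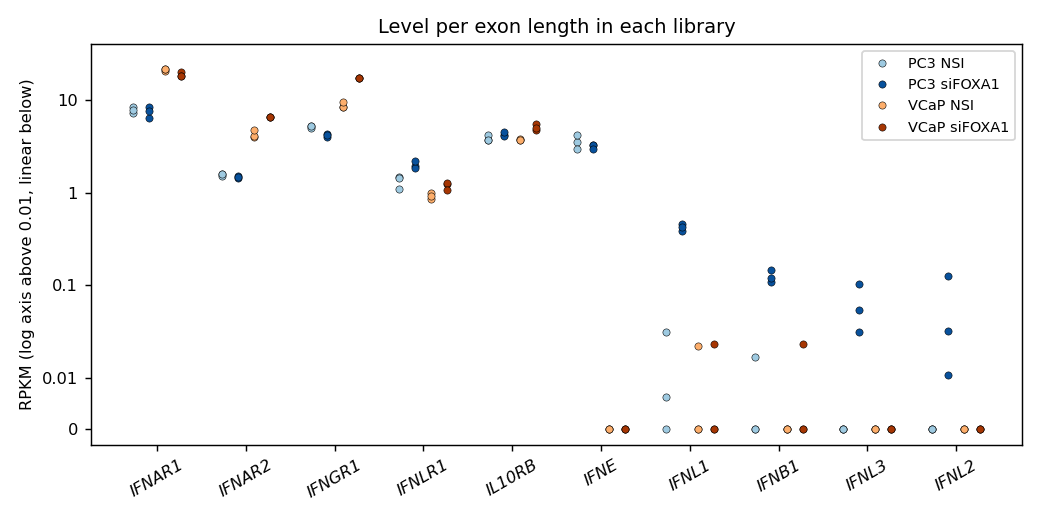
Level per exon length of the 10 members in every library (y axis, RPKM, logarithmic above 0.01 and linear below), coloured by group. Receptor genes lie between 0.860 and 21.4 RPKM, IFNE is near them in PC3 and at 0 in VCaP, and the other ligands are at most 0.457 RPKM in every library.

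The genes whose pattern over the 12 libraries was most like a receptor gene's were sought among 9881 genes that averaged 5 CPM or more in both lines. Likeness was the root mean square difference of log2(CPM + 1) profiles centred within each line. The closest to IFNGR1 were CADPS2 (0.063) and SESN2 (0.065), and to IFNAR2 GALNT2 (0.043) and CDC42EP4 (0.043). IFNAR1 was closest to ZNF184 (0.047) and C10orf88 (0.050), IFNLR1 to TBCK (0.062) and NCEH1 (0.070), and IL10RB to BBS9 (0.032) and MKNK1 (0.042).

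Genes that act with or after the receptors were read from lists, against a background of 13.9% of all genes called in each direction in PC3, and of 22.5% higher and 23.3% lower in VCaP. The PC3 fit with the replicate block had a larger background. It called 42.8% of 26478 genes, 5217 higher and 6116 lower. With that block the PC3 counts, higher and lower, were 3 and 2 for other receptors of the family, 9 and 3 for inducers of ligand genes and 14 and 0 for genes responding mainly to interferon gamma. The kinase list and the targets of type I and III interferon had equal counts in both fits. Among 7 other receptors of the same family, 2 of 5 tested in PC3 were called higher (IL22RA1, log2 change 1.57, and IL20RB, 1.20) and 2 lower (IL20RA, −0.90, and IFNGR2). In VCaP 4 of 6 tested were called higher, with IL22RA1 (1.04) and IL20RA (0.57) at the smallest p. IL22RA1 encodes the receptor chain for interleukin-22, which pairs with IL10RB.

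Of the 7 receptor-bound kinases and STAT complex genes, 4 of 6 tested rose in PC3 and none fell. STAT2 stood at 58.5 ± 11.0 CPM under NSI and 320 ± 22.4 under siFOXA1 (SD, n = 3 each). Its log2 change was 2.45 (adjusted p 1.55e-05, edgeR quasi-likelihood test). In VCaP 3 rose and 2 fell, with STAT3 at 0.49 and JAK2 at 0.58 against JAK1 at −0.24 and TYK2 at −0.36. STAT3 summed to 8.36 counts in PC3 NSI and 5.25 in siFOXA1 and fell under the filter there.

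Negative regulators were called in both directions. In PC3 3 of 10 were called higher and 2 lower (4 lower with the replicate block). USP18, which displaces JAK1 from IFNAR2, rose from 6.54 ± 0.465 to 54.3 ± 3.13 CPM in PC3 and fell from 9.80 ± 0.106 to 5.12 ± 0.509 CPM in VCaP (SD, n = 3 each). The log2 changes were 3.05 (adjusted p 7.33e-07) and −0.94 (adjusted p 5.12e-05, edgeR quasi-likelihood test). SOCS1, an inhibitor of JAK kinases, rose in PC3 by 3.27, PTPN2 was at −0.45, and CISH at −0.43 was called in 5 of 15 alternative fits. In VCaP 3 were higher, CISH (1.29) and PTPN6 (0.36) first by p, and 3 lower, USP18 and BTRC (−0.32) first, shares near those over all genes.

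Among inducers of ligand genes, the sensors and regulators that act before them, 8 of 18 tested rose in PC3 and 2 fell. IFIH1, a sensor of viral RNA, went from 9.28 ± 2.41 to 114 ± 9.61 CPM and IRF1 from 19.2 ± 3.08 to 103 ± 2.89 CPM (SD, n = 3 each), log2 changes of 3.62 (adjusted p 9.32e-06) and 2.42 (adjusted p 6.58e-06, edgeR quasi-likelihood test). NFKB1 (−0.55) and TRAF3 (−0.49) fell, TRAF3 losing its call without NSI replicate 3. In VCaP 7 of 19 rose, with TLR3 (1.22) and TMEM173 (2.46) first by p, and 2 fell, TICAM1 (−0.65) and IRF1 (−0.44). The symbols RIGI, STING1 and CGAS matched no row, and their older names DDX58, TMEM173 and MB21D1 did.

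Target genes of type I and III interferon rose in PC3 in 20 of 20 cases, with a median log2 change of 3.62 against −0.01 over all genes. The 2 with the smallest p were IFI44, from 25.6 ± 2.58 to 194 ± 15.1 CPM, and HERC5, from 3.62 ± 0.253 to 21.8 ± 1.01 CPM (SD, n = 3 each). In VCaP 10 of 14 tested rose and 2 fell, with a median of 1.04 against 0.02 over all genes, and 6 were under the filter. OAS1 (1.55) and IFIT2 (1.32) rose there, and HERC5 (−1.65) and ISG15 (−0.69) fell. The difference between lines was called for 14 of the 20, all more positive in PC3. Over all genes tested, 22.1% were called in that difference, 11.1% of all being more positive in PC3. The targets not called in it were the 6 under the filter in VCaP.

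Genes responding mainly to interferon gamma rose in 13 of 15 cases in PC3, with a median of 3.70. The 2 not called were CIITA (0.08, adjusted p 0.72) and HLA-DMA (0.81, adjusted p 0.068, edgeR quasi-likelihood test). IDO1 went from 2.56 ± 0.329 to 50.04 ± 2.67 CPM and GBP2 from 10.5 ± 1.10 to 107 ± 2.22 CPM (SD, n = 3 each), though IFNG itself was under the filter. In VCaP 5 of 9 tested rose, CXCL10 (3.49) and CXCL11 (2.52) first by p, and 2 fell, HLA-DRB1 (−2.06) and CXCL9 (−1.11). CIITA was among those that rose in VCaP (2.72, adjusted p 8.68e-06, edgeR quasi-likelihood test), and HLA-DMA was not called there. The lists were chosen with earlier results of these data known, so their counts are not independent evidence of direction.

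**Figure D5:**
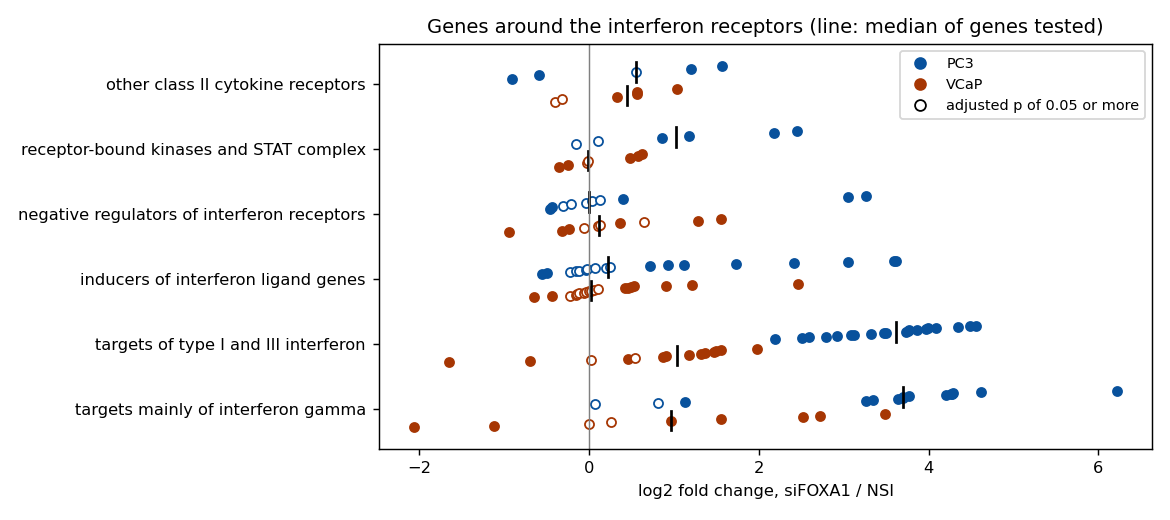
Log2 fold change of siFOXA1 over NSI (x axis) for each tested gene of 6 lists around the receptors, PC3 in blue and VCaP in brown, filled for an adjusted p under 0.05, with a black line at each list's median. All 20 type I and III targets lie above 2 in PC3, whereas in VCaP the 14 tested lie on both sides of 0.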

How the data were processed

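Gene-level RNA sequencing counts from 12 libraries were used, 3 per group, with groups and replicate numbers from the titles. The deposited values are expected counts per gene, many of them fractional. The authors made them with featureCounts, per the file headers, over GRCh37 exons of GENCODE v28lift37 (basic), keeping fragments with both ends mapped and dividing a fragment among the places and genes it matched. Per the file headers, the VCaP counts used strand setting 2 and the PC3 counts set none. Per the submitters' processing notes, STAR 2.7.3a and Subread 2.0.0 were used. Fractions made up 54.8% to 75.2% of the nonzero values of a library.

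Counts were rounded, with ties going up. The 6 libraries of a line formed a fit of their own in edgeR 4.0.16 (R 4.3.3), with TMM factors, filterByExpr and the two-sided quasi-likelihood test, with Benjamini-Hochberg adjustment over all genes tested (26478 in PC3, 22939 in VCaP and 30450 in the difference between lines, an interaction over all 12 libraries). A call is an adjusted p under 0.05. SE is the log2 fold change divided by the root of F. The fit was tested on simulated data in which only well-counted genes were changed, so that test does not bear on the low-count ligands. CPM used TMM factors within a line, and RPKM used factors over all 12 libraries and the tables' exon lengths. Intervals and the floor of 3 counts cover counting error only, and reads carried no molecular identifiers that the sources used here mention.

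Rounding was changed after a first fit, with ties going to the even number, had been seen. That first choice is kept as an added alternative. The upstream windows were also limited to the 250 bases before the start after a first search that ran past it, to leave out transcribed bases, and the GAAA pair matches of the members did not change. No protein table was used here, so exon sequences on GRCh37 were compared in place of the planned proteins. The members, lists and tests were chosen with earlier results of these data known. Genes outside the members were named where their exons overlap a member's, as the 2 closest patterns per member, or as the 2 with the smallest p per list and direction. One gene that this rule names is not reported here. FOXA1, IFNGR2, STAT3, IFNA1, PTPRC and CD14 were given further values because they bear on a member's result. CIITA and HLA-DMA were named as the genes of their list not called in PC3. IFNE in the difference between lines was left out after its unusable error was seen.

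Replicates of a group differed by more than counting noise (chi-square per degree of freedom 9.77 to 141). Same-numbered PC3 libraries deviated together (r 0.49, 0.63 and 0.24 over genes, against −0.12, −0.46 and −0.03 for other numbers). The numbers were therefore taken to pair them. The PC3 p-values given come from unpaired tests unless the replicate block is named. In VCaP the r values were 0.11, 0.02 and 0.37, against −0.02, 0.01 and −0.23 for other numbers, and the numbers were not taken to pair. VCaP replicate 3 had a higher r than PC3 replicate 3, so this choice was a judgement. Deviations were centred within each group, so a positive r for the same number by itself pushes those for other numbers down. Alternatives tried were other scalings, DESeq2 1.42.0, no filter, unrounded counts, the replicate block, all 12 libraries in 1 fit and each library left out.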

Additional observations from a re-analysis of the deposited data

Results flagged for a closer look

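IFNGR1 and IFNAR2 responded differently to the FOXA1 siRNA in the 2 lines, by the test of the difference itself. For IFNGR1, the receptor chain that binds interferon gamma, the VCaP effect exceeded the PC3 effect by 1.29 on the log2 scale (adjusted p 6.19e-07, edgeR quasi-likelihood test). The VCaP levels rose and the PC3 levels fell, with groups apart in both lines. For IFNAR2, the chain of the type I receptor, the difference was 0.71 (adjusted p 0.00044, edgeR quasi-likelihood test). Its VCaP levels rose, and its PC3 change was not called. Both differences were called in all 20 alternative fits, ranging from 1.20 to 1.36 for IFNGR1 and from 0.62 to 0.78 for IFNAR2. Line cannot be told apart from siRNA dose, medium, library kit and strand setting, and FOXA1 itself fell further in VCaP, by a difference of −1.94 on the log2 scale. IFNAR2 shares exons with AP000295.9, whose difference was also called (0.44, adjusted p 0.0078, edgeR quasi-likelihood test), and the part of shared fragments in the IFNAR2 result was not tested.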

How the results depend on the processing

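Of 50 recomputed counts of called members, 46 stayed within 1.5 times the reported one. In VCaP 3 members were called with library size alone and with all 12 libraries in 1 fit, namely IFNAR2, IFNGR1 and IL10RB. Leaving out each library in turn gave 2 to 4 members in PC3, 3 to 4 in VCaP and 2 in each case in the difference. The shares over all genes in those fits were 14.7% to 27.9%, 37.2% to 42.2% and 16.7% to 24.9%. The PC3 counts of members include IFNB1 and IFNL1, which are not read against these shares. The lowest values came without PC3 siFOXA1 replicate 3 (IFNB1 and IFNL1 called, and no receptor gene) and without VCaP siFOXA1 replicate 2. With the replicate block, 4 members were called in PC3, 5 in VCaP and 2 in the difference, and the block changed no member's call. Among recomputed log2 fold changes, 293 kept direction and side of the threshold, 19 lost the call, and 1 gained it (IFNL1 in the difference, by DESeq2). The uncalled change of IFNAR1 in PC3 turned to 0.00024 without siFOXA1 replicate 2, and was as low as −0.15 with another library left out (siFOXA1 replicate 1). The cause of these shifts was not tested. IFNB1 was called in the 14 alternatives that tested it (3.75 to 7.09) and IFNL1 in 15 (4.50 to 6.52). Where a filter was applied, both passed it only through siFOXA1 libraries, so these calls are a description only. IFNGR1 in PC3 was called in 11 of 15, IFNLR1 in PC3 in 14 and in VCaP in 7, and IFNAR1 in VCaP in 9. Over all genes in PC3, 7344 were called in the main analysis, 11333 with the block, 4738 without NSI replicate 3 and 3963 without siFOXA1 replicate 1. Higher genes made up 50.04% of the PC3 calls, and 64.3% with library size alone. Without length, 6 of 20 receptor ranks by level moved. The low counts of IFNB1, IFNL2 and IFNL3 limit their precision.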
